A study of Mus musculus with 16 samples.

Results

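Members of the ATP-binding cassette A (Abca) gene cluster on mouse chromosome 11 and 5 other genes of that chromosome were followed in RNA from sorted cortical parvalbumin (PV) interneurons. The genes were Abca5, Abca6, Abca8a, Abca8b, Abca9, P3h4, Gm11592, Npepps, Gm11702 and Grb2, which are 10 of 54532 genes in the count table. All 10 had read counts in that table and all 10 passed the filter on low counts. The eGFP-GluA2 mice carried PV-Cre and lsl-eGFP-GluA2, an allele in which Cre, driven by the gene for parvalbumin, switches on the AMPA receptor subunit GluA2 fused to the fluorescent protein eGFP. The control mice carried PV-Cre and lsl-eGFP, so that Cre and eGFP were common to both groups. There were 7 libraries of eGFP-GluA2 cells and 9 libraries of eGFP cells from adult mice, for which the labels give a single age of 113.1 ± 11.6 days over both genotypes. Cells had been fixed in 4% paraformaldehyde for 15 min, sorted by eGFP and a nuclear dye, and treated with proteinase K before RNA extraction, polyA selection and 150-bp paired-end sequencing.

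The choice of these genes rests on the comparison of eGFP-GluA2 with eGFP libraries itself. Abca9, Abca6, P3h4, Gm11592 and Gm11702 were chosen because they were lower in eGFP-GluA2 libraries, and the other 5 because they adjoin or overlap these or complete the cluster. Their differences between the groups are therefore given as a description, without a test. In edgeR's quasi-likelihood test with 1 surrogate variable, 9 of 26257 tested genes lay under a Benjamini-Hochberg adjusted p of 0.05 (0.0343%), and 5 of the 10 genes were among them, a count fixed by how they were chosen. In the test without covariates 1 gene lay under it (0.00381%), and it was none of the 10.

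ABCA transporters are large membrane proteins that use ATP to move or flip lipids such as cholesterol and phospholipids. Abca5, Abca6, Abca8a, Abca8b and Abca9 form a branch of the family that lies in a single row of genes in the mouse, and the human genome holds a related row with ABCA10. P3h4 encodes a non-enzymatic member of the prolyl 3-hydroxylase family that acts with a lysyl hydroxylase on collagen in the endoplasmic reticulum. Npepps encodes the puromycin-sensitive aminopeptidase, a cytosolic peptidase abundant in brain. Grb2 encodes an adaptor that links receptor tyrosine kinases to downstream signalling.

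Libraries held 7454165 to 15462544 counts. Reads from 1448 autosomal olfactory and vomeronasal receptor genes, which cortical neurons are not known to use, took 82.4 to 4142 CPM (read counts scaled to a common library total). This measure is called the background here. Low background (under 500 CPM) was found in 2 eGFP-GluA2 and 3 eGFP libraries, middle background (500 to 1500 CPM) in 3 eGFP-GluA2 and 2 eGFP libraries, and high background (over 1500 CPM) in 2 eGFP-GluA2 and 4 eGFP libraries. The first principal component of log2 CPM, with 84.0% of the variance, followed this gradient. The 11 PV interneuron markers summed to 6436 to 11060 CPM in eGFP-GluA2 and 5932 to 10602 CPM in eGFP libraries, and all 11 were detected in every library.

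In the GRCm38 annotation the cluster runs on the minus strand in the order Abca8b (chr11:109932190-109995845), Abca8a (chr11:110025634-110095978), Abca9 (chr11:110100749-110168196), Abca6 (chr11:110176820-110251776) and Abca5 (chr11:110269369-110337716). The gaps between neighbours in this order are 29788, 4770, 8623 and 17592 bp. The lowered pair, Abca9 and Abca6, thus sits side by side between Abca8a and Abca5. Over their coding sequences Abca9 and Abca6 are 66.0% identical, Abca8a and Abca8b 74.4%, Abca8a and Abca9 70.9%, and Abca8b and Abca9 70.3%. Abca5 is the most distant, at 59.1% to 60.2% identity to each of the other members. The longest run of identical bases was 97 bp, between Abca8a and Abca8b, and 62 bp between Abca9 and Abca6, both shorter than a read. Transcripts of Abca8a and Abca8b also share a stretch of 218 bp at 96.3% identity, which is longer than a read, so their counts are less certain.

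Promoter windows of RefSeq (GRCm38.p6), from 250 bases before to 50 after the annotated start, are shown for 4 cluster genes because the start regions of the row differ in base composition. Capitals mark matches, on either strand, to 2 of 4 motifs searched, the GC box core GGGCGG and the E-box CACGTG; the other motifs, TATAAA and CCAAT, had no match in these 4 windows. Matches to GGGCGG can overlap in runs of G.
Abca9 promoter: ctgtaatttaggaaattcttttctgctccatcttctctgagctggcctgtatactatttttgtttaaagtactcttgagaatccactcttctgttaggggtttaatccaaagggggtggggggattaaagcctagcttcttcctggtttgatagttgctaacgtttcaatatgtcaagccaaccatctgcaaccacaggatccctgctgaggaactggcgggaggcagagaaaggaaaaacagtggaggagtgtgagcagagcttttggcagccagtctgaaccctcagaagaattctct
Abca8a promoter: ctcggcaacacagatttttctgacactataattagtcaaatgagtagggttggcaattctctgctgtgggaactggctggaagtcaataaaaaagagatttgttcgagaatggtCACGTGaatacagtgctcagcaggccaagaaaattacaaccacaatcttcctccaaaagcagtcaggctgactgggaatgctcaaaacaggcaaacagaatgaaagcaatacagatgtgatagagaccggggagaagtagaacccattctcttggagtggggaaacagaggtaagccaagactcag
Abca8b promoter: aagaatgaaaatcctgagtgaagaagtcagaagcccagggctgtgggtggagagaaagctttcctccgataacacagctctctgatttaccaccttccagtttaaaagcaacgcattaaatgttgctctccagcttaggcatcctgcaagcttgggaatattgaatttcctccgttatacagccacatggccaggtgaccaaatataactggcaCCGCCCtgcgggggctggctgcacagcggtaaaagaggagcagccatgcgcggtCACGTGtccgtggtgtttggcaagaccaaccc
Abca5 promoter: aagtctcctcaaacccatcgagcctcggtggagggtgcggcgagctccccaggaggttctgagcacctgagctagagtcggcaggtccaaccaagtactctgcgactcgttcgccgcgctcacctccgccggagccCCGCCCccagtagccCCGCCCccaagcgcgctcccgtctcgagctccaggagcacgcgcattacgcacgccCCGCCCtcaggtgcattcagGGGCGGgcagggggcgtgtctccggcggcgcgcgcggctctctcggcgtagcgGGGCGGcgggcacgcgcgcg
The Abca9 window (chr11:110168104-110168403) held 45.3% G+C, 2 CpG dinucleotides and no match to any of the 4 motifs. The Abca8a window (chr11:110095888-110096187) held 44.3% G+C, 4 CpG and 1 CACGTG. The Abca8b window (chr11:109995796-109996095) held 51.3% G+C, 10 CpG, 1 CACGTG and 1 GGGCGG. The Abca5 window (chr11:110337667-110337966) stood apart with 72.3% G+C, 40 CpG and 5 matches to GGGCGG, and 96.5% of all windows held as many CpG or fewer. Among 32851 windows of the same length the median was 52.7% G+C and 7 CpG, and 35.7% held GGGCGG, 7.15% CACGTG, 37.4% CCAAT and 13.6% TATAAA.

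Abca9, a transporter whose substrate is not settled, was lower on average in eGFP-GluA2 libraries at each level of background. It ranged from 2.85 through a median of 5.94 to 13.1 CPM in eGFP-GluA2 libraries, against 4.65, 10.4 and 22.4 CPM in eGFP libraries. Over all libraries the groups overlapped, since in both the high-background libraries lay at the top. In low-background libraries Abca9 was at 2.85 and 2.88 CPM in eGFP-GluA2, and at 4.65, 5.73 and 6.87 CPM in eGFP. In middle-background libraries it was at 4.24, 5.94 and 6.94 CPM in eGFP-GluA2, against 8.16 and 10.4 CPM in eGFP. In high-background libraries it was at 13 CPM in both eGFP-GluA2 libraries, against 12.1, 17.9, 22.1 and 22.4 CPM in eGFP, where eGFP replicate 2 was the library below the others. The fitted log2 fold change, eGFP-GluA2 over eGFP, was -0.79 ± 0.29 (SE) without covariates and -0.77 ± 0.10 (SE) with the background as a covariate. In bulk RNA, fewer cells that express a gene and less of its RNA per cell cannot be told apart.

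Abca6, the next gene of the row, showed the same order of groups. It ranged from 3.95 through 4.50 to 12.2 CPM in eGFP-GluA2 libraries and from 5.88 through 9.74 to 20.0 CPM in eGFP libraries. In low-background libraries it was at 3.95 and 4.02 CPM in eGFP-GluA2, against 5.88, 6.37 and 7.25 CPM in eGFP. In middle-background libraries it was at 4.49, 4.50 and 6.41 CPM in eGFP-GluA2, against 8.37 and 9.74 CPM in eGFP. As for Abca9, the high-background libraries overlapped through eGFP replicate 2, with 10.7 and 12.2 CPM in eGFP-GluA2 and 10.9 to 20.0 CPM in eGFP. The log2 fold change was -0.74 ± 0.20 (SE) without covariates and -0.71 ± 0.12 (SE) with the background as a covariate. In TPM, the length-scaled abundance of a separate quantification, the groups of Abca6 did not overlap over all 16 libraries. Abca6 then lay at 0.290 to 0.572 TPM in eGFP-GluA2 and at 0.656 to 1.93 TPM in eGFP libraries. How many of all genes were without overlap in TPM was not counted, and in CPM the groups of Abca6 overlapped. In TPM the groups of Abca9 overlapped within the middle background, at 0.325 to 0.755 in eGFP-GluA2 and 0.612 to 0.887 in eGFP, and within the high background, at 0.758 to 0.801 in eGFP-GluA2 and 0.747 to 1.87 in eGFP.

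The other 3 genes of the row had close group means in CPM. Abca8a averaged 4.15 ± 4.19 CPM in eGFP-GluA2 and 4.95 ± 4.70 CPM in eGFP libraries (SD, n = 7 and 9). It ran from 0.388 to 10.3 CPM in eGFP-GluA2 and from 0.372 to 12.1 CPM in eGFP libraries. Its log2 fold change was -0.23 ± 0.65 (SE) without covariates and -0.09 ± 0.17 (SE) with the background as a covariate. The quantifications differed for Abca8a in low-background libraries. There its CPM were 0.388 and 0.683 in eGFP-GluA2 and 0.372 to 1.00 in eGFP, but its TPM were 0.382 and 0.861 in eGFP-GluA2 and 0.0193 to 0.204 in eGFP. Its counts behind these CPM were 6 and 9 in eGFP-GluA2 and 5 to 14 in eGFP, so they rest on few reads. Abca8b averaged 30.3 ± 5.85 CPM in eGFP-GluA2 and 31.3 ± 5.66 CPM in eGFP libraries (SD, n = 7 and 9), a log2 fold change of -0.03 ± 0.09 (SE). Abca5, whose product sits in lysosomes and endosomes, averaged 233 ± 33.3 CPM in eGFP-GluA2 and 240.0 ± 31.4 CPM in eGFP libraries (SD, n = 7 and 9), a log2 fold change of -0.04 ± 0.20 (SE). The 95% confidence interval of the log2 fold change was -0.22 to 0.17 for Abca8b and -0.45 to 0.37 for Abca5, and -1.60 to 1.15 for Abca8a. At low background, the TPM of Abca8b were 3.90 and 5.07 in eGFP-GluA2 and 2.66 to 3.25 in eGFP. Those of Abca5 were 43.9 and 59.5 against 35.3 to 42.9. At middle background the order was reversed, with 2.04 to 2.65 against 2.66 to 3.01 for Abca8b and 22.4 to 23.5 against 25.7 to 26.7 for Abca5. Over all libraries the groups of both genes overlapped in TPM.

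**Figure D1:**
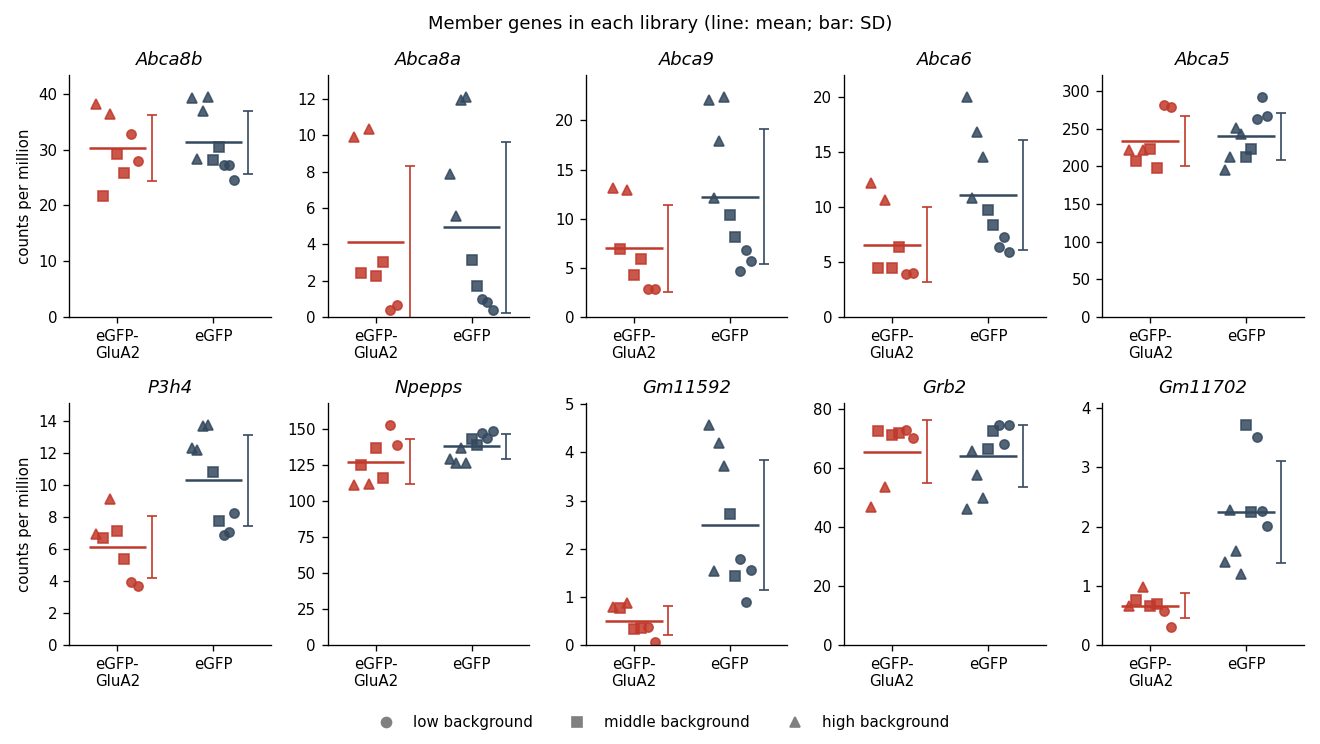
CPM of the 10 genes in each library, with 7 eGFP-GluA2 libraries at the left and 9 eGFP libraries at the right of each panel; the line is the group mean, the bar its SD, and the marker shape gives the background of the library. Gm11592 and Gm11702 show no overlap of the groups, Abca9, Abca6 and P3h4 overlap over all libraries with lower means in eGFP-GluA2, and Abca8a, Abca8b, Abca5, Npepps and Grb2 have close means.

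For Gm11592 and Gm11702 the groups did not overlap over all 16 libraries in CPM, and of 26257 tested genes 2 were lower in this way (0.00762%), which are these members. Within the low and within the middle background, CPM were lower without overlap in eGFP-GluA2 for Abca9, Abca6, P3h4, Gm11592 and Gm11702, as they were for 176 of 26257 genes (0.67%). After scaling between libraries by trimmed means (TMM), the same 5 genes were lower without overlap within each of the 3 levels of background, as were 60 of 26257 genes (0.229%). On CPM of total counts, 16 genes were lower without overlap within each of the 3 levels (0.0609%), among them P3h4, Gm11592 and Gm11702 but neither Abca9 nor Abca6. These counts come from the contrast that chose the genes.

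The relation of each gene to the background is a contrast that the choice did not use. Abca8a rose by 0.69 ± 0.05 (SE) on the log2 scale per doubling of the background, with a Benjamini-Hochberg adjusted p of 1.5e-12 in edgeR's quasi-likelihood test. Abca9 rose by 0.28 ± 0.03 (SE, adjusted p = 3.1e-10) and Abca6 by 0.16 ± 0.03 (SE, adjusted p = 8.2e-06) per doubling. Abca5 fell by 0.16 per doubling (SE 0.03, adjusted p = 4.8e-06), and Abca8b changed by -0.03 ± 0.02 (SE, adjusted p = 0.166), which missed the threshold. Of the other genes, Gm11592 rose by 0.18 ± 0.06 (SE, adjusted p = 0.00813) and P3h4 by 0.08 ± 0.03 (SE, adjusted p = 0.0164) per doubling. Npepps fell by 0.15 (SE 0.03, adjusted p = 4.5e-05) and Grb2 fell by 0.18 (SE 0.04, adjusted p = 0.000197), while Gm11702 changed by -0.14 ± 0.07 (SE, adjusted p = 0.0778). Thus 8 of the 10 genes passed, against 75.4% of all tested genes, of which 44% rose and 31.4% fell with the background. Gm11592, counted among these 8, entered the test only because the eGFP group passed the filter on low counts. It had 1 to 8 reads in eGFP-GluA2 libraries. Gm11702 entered in the same way, so the values of both are uncertain. The 5 genes of the row were split: Abca8a, Abca9 and Abca6 rose, Abca5 fell and Abca8b did not pass.

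**Figure D2:**
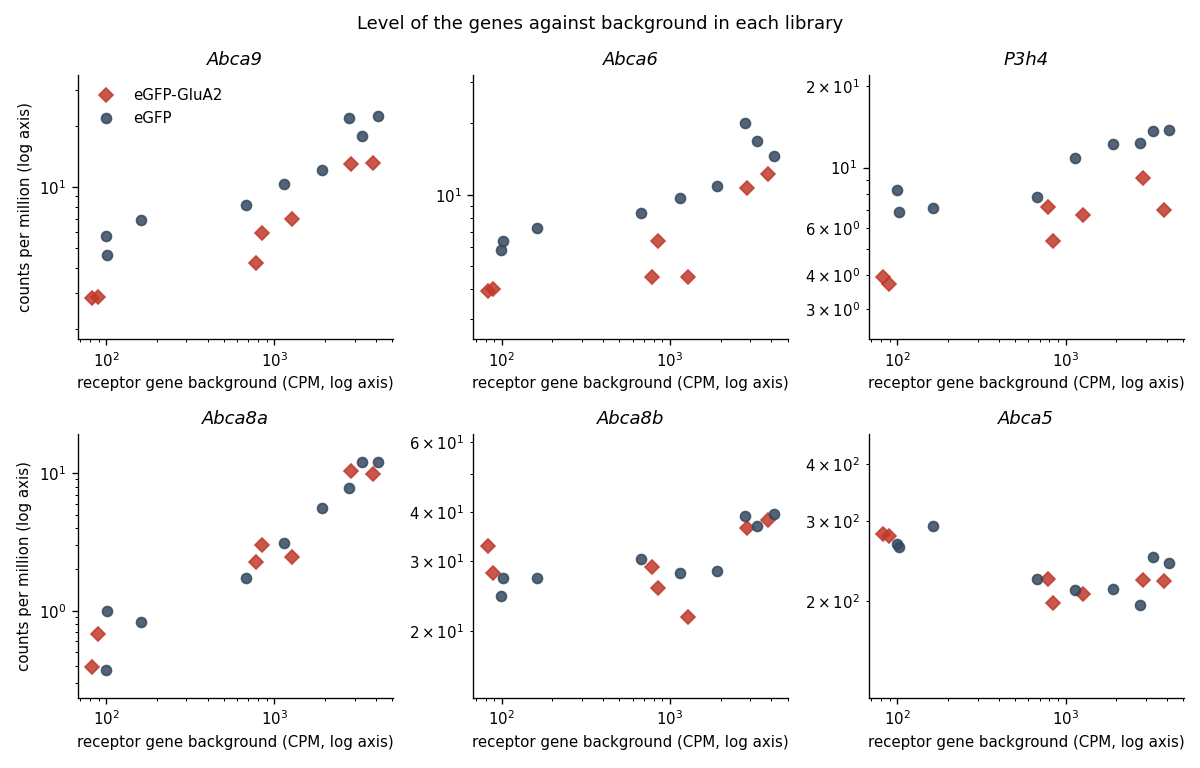
CPM of 6 genes (vertical log axis) against the background (horizontal log axis) in 16 libraries, with eGFP-GluA2 as diamonds and eGFP as circles. Abca8a follows the background in both groups, Abca9, Abca6 and P3h4 rise more slowly with eGFP-GluA2 libraries mostly below eGFP libraries of like background, Abca5 falls, and Abca8b changes little.

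Levels per length were compared with those of the receptor genes in the same library. Abca9 lay at 21.7 to 38.5 times the CPM per kilobase of the receptor genes in low-background libraries and at 2.28 to 5.28 times in high-background ones. Abca6 lay at 44.6 to 62.3 times in low-background and at 3.16 to 7.16 times in high-background libraries. Abca8a was near the receptor genes throughout, at 3.21 to 8.44 times in low-background and 2.21 to 3.10 times in high-background libraries. Abca5 was far above them everywhere, at 848 to 1605 times and 27.1 to 52.3 times. So, of this row, Abca8a was measured closest to the level of genes that these cells are not known to use. Markers of fibroblasts and vascular leptomeningeal cells, a cell type in which Abca8a and Abca9 are known to be expressed, rose with the background. Markers of some other cell types also rose, and others did not. The 12 fibroblast markers summed to 1.94 to 117 CPM in eGFP-GluA2 and 3.65 to 112 CPM in eGFP libraries. They summed to 1.94 to 4.23 CPM in low-background and 60.8 to 117 CPM in high-background libraries. Markers of endothelium summed to 8.30 to 15.4 CPM in low-background and 38.2 to 67.9 CPM in high-background libraries, those of mural cells to 8.02 to 14.3 and 42.4 to 88.9 CPM, and those of oligodendrocyte precursors to 4.86 to 9.41 and 39.1 to 60.9 CPM. Microglial markers summed to 29.0 to 37.0 CPM in low-background and 48.0 to 59.6 CPM in high-background libraries. Astrocyte markers did not rise, at 193 to 285 CPM in low-background and 138 to 234 CPM in high-background libraries. In the same order, oligodendrocyte markers were at 84.2 to 160 and 105 to 149 CPM. Excitatory neuron markers were at 367 to 484 and 396 to 488 CPM. PV interneuron markers were lower in high-background libraries, at 5932 to 8008 CPM against 10098 to 11060 CPM in low-background ones. All 12 fibroblast markers had reads in some library and 7 had reads in all, while Lum, Slc6a13, Slc22a6, Igf2 and Aox3 were at 0 in at least 1 library. Their part in the levels of the Abca genes was not tested.

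Within the whole ABCA family, Abca2 and Abca5 had the highest levels in TPM. Abca2, a lysosomal transporter abundant in oligodendrocytes and neurons, averaged 38.2 ± 11 TPM in eGFP-GluA2 and 30.5 ± 3.98 TPM in eGFP libraries (SD, n = 7 and 9). Abca5 averaged 31.9 ± 14.3 TPM in eGFP-GluA2 and 30.3 ± 7.45 TPM in eGFP libraries, which is within the spread of Abca2. Abca3, Abca7 and Abca1 followed, with 20.5, 6.52 and 4.20 TPM in eGFP-GluA2 and 17.2, 5.44 and 3.70 TPM in eGFP libraries. Abca8b came next, with 3.21 ± 1.01 TPM in eGFP-GluA2 and 3.03 ± 0.506 TPM in eGFP libraries. Abca9 averaged 0.575 ± 0.205 TPM in eGFP-GluA2 and 1.04 ± 0.519 TPM in eGFP libraries, Abca8a 1.01 ± 0.780 TPM and 1.03 ± 1.2 TPM in the same groups, and Abca6 0.433 ± 0.107 TPM and 0.949 ± 0.431 TPM. In eGFP libraries Abca9, Abca8a and Abca6 thus did not differ beyond their spread. Of the 11 ABCA genes outside the row, 0 lay under an adjusted p of 0.05 and 0 under an unadjusted p of 0.05 in edgeR's test of eGFP-GluA2 against eGFP. Of all tested genes only 0.00381% and 1.12% did, so a list this short says little. The median log2 fold change was -0.02 for these 11 and -0.02 over all tested genes. The nearest of them to the threshold were Abca7 (log2 fold change 0.14 ± 0.08, SE) and Abca2 (0.21 ± 0.21, SE).

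In the rest of the family the relation to background differed between genes and did not simply follow mean level. Abca12, Abca13, Abca14, Abca15 and Abca16, with 0 to 0.0321 TPM on average in low-background libraries, rose by 1.08 to 1.18 on the log2 scale per doubling of the background. Their low level in low-background libraries is not independent of this rise. Abca4 rose by 0.78 and Abca17 by 0.60 per doubling. Abca4 averaged 1.86 TPM in eGFP-GluA2 and 2.16 TPM in eGFP libraries, and Abca17 only 0.229 and 0.198 TPM. Abca2 and Abca3 fell by 0.14 and by 0.13. Abca8a lay between Abca4 and Abca17 in this order, and Abca9 and Abca6 lay between Abca17 and the falling genes Abca2 and Abca3.

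**Figure D3:**
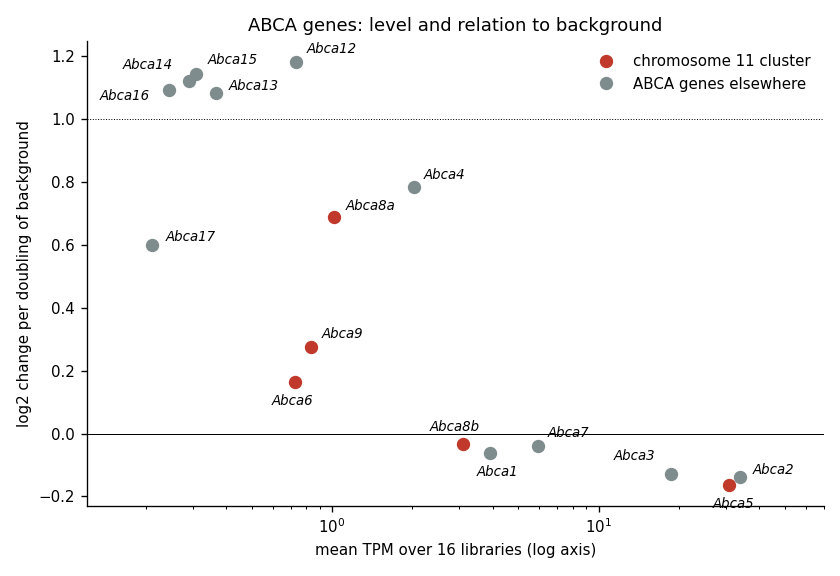
Log2 change per doubling of the background (vertical axis) against mean TPM over 16 libraries (horizontal log axis) for the 5 cluster genes and 11 other ABCA genes; the dotted line marks a change in proportion to the background. Abca12 to Abca16 lie above that line, Abca8a is at 0.69, Abca9 and Abca6 are at 0.28 and 0.16, and Abca5 is below 0 beside Abca2.

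P3h4 (chr11:100408456-100414836, minus strand) was lower in eGFP-GluA2 libraries at each level of background, without overlap at any of them in CPM. It ranged from 3.72 through 6.68 to 9.12 CPM in eGFP-GluA2 libraries, against 6.87, 10.8 and 13.8 CPM in eGFP libraries. In low-background libraries it was at 3.72 and 3.95 CPM in eGFP-GluA2 and at 6.87 to 8.27 CPM in eGFP. In high-background libraries it was at 6.98 and 9.12 CPM in eGFP-GluA2 and at 12.2 to 13.8 CPM in eGFP. The log2 fold change was -0.72 ± 0.16 (SE), and -0.72 ± 0.13 (SE) with the background as a covariate. In TPM it averaged 0.917 ± 0.330 in eGFP-GluA2 and 1.90 ± 0.474 in eGFP libraries (SD, n = 7 and 9). Of 16 other genes for the modification of prolines and lysines in collagen, 0 passed at an adjusted or an unadjusted p of 0.05 in edgeR's test. This is near the share of all tested genes, 0.00381% and 1.12%. Of the 16, 6 were below and 10 above 0 with a median log2 fold change of 0.06. Serpinh1, a collagen chaperone, averaged 4.70 ± 2.70 CPM in eGFP-GluA2 and 3.47 ± 1.43 CPM in eGFP libraries, a log2 fold change of 0.47 ± 0.32 (SE). P4ha2, a prolyl 4-hydroxylase subunit, was at 45.0 ± 11.4 and 42.0 ± 10.9 CPM in the same groups, a log2 fold change of 0.11 ± 0.10 (SE).

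Gm11592 (chr11:97280128-97282897, plus strand) is a transcript annotated as antisense to Npepps (chr11:97205842-97280638, minus strand), and in the GENCODE annotation it starts within the body of Npepps. It has 3 exons of 104, 218 and 315 bp, and 31 of these 637 exon bases (4.87%) also lie in exons of Npepps, while the gene bodies share 511 bp. The start regions of this pair are shown because the RefSeq windows overlap head to head, with the shared bases of the Gm11592 window in capitals.
Gm11592 promoter: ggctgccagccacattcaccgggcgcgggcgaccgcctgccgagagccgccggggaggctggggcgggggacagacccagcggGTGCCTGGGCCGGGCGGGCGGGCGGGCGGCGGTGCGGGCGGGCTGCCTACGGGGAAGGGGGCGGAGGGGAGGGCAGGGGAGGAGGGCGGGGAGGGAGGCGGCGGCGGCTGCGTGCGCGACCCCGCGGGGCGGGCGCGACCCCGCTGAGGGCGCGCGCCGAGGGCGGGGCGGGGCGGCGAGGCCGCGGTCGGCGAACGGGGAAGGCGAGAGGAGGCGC
This window (chr11:97280444-97280743) held 84% G+C, 48 CpG and 12 matches to GGGCGG, counting overlaps, and its last 217 bases (chr11:97280527-97280743) lie in the Npepps window, read on the opposite strand. RefSeq thus places the start of Gm11592 further along the plus strand than GENCODE does, outside the Npepps body, so the window does not surround the GENCODE start.

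Gm11592, chosen as lower in this contrast, had the lowest log2 fold change of the tested chromosome 11 genes with the background as a covariate. It had 6, 6, 8, 4, 3, 6 and 1 reads in the 7 eGFP-GluA2 libraries, against 39, 17, 42, 34, 33, 14, 25, 12 and 21 reads in the 9 eGFP libraries. Every eGFP-GluA2 library was thus below every eGFP library, at 0.0759 to 0.879 CPM against 0.906 to 4.57 CPM. The log2 fold change was -2.23 ± 0.40 (SE) without covariates and -2.22 ± 0.28 (SE) with the background as a covariate. The gene exceeded the filter's 0.953 CPM in 0 of 7 eGFP-GluA2 and in 8 of 9 eGFP libraries, so it passed the filter only through the eGFP group. In TPM it averaged 0.314 ± 0.354 in eGFP-GluA2 and 1.70 ± 1.12 in eGFP libraries (SD, n = 7 and 9). There the groups overlapped, at 0 to 0.848 TPM in eGFP-GluA2 and 0.704 to 4.15 TPM in eGFP libraries. Npepps, on the other strand, averaged 128 ± 15.8 CPM in eGFP-GluA2 and 138 ± 8.63 CPM in eGFP libraries (SD, n = 7 and 9), a log2 fold change of -0.10 ± 0.19 (SE). The sources used here do not state whether counting took strand into account, so reads in the shared exon bases cannot be assigned to either gene.

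The quantifications differed for Npepps. Its TPM were 309 and 334 in the 2 high-background eGFP-GluA2 libraries and 133 to 386 in the 4 high-background eGFP libraries. They were 115 to 181 in the other eGFP-GluA2 libraries and 119 to 161 in the other eGFP libraries. In CPM the high-background libraries were the lower ones, at 111 to 112 in eGFP-GluA2 and 127 to 137 in eGFP. Transcripts of Npepps aligned over stretches of 60 bp or more, at 95% identity or more and up to 178 bp long, with transcripts of 299 other genes. Of 10 other M1 or related aminopeptidase genes tested, 0 passed at an adjusted or an unadjusted p of 0.05, against 0.00381% and 1.12% of all tested genes. Their median log2 fold change was 0.00. Trhde, which degrades thyrotropin-releasing hormone, averaged 17.2 ± 2.33 CPM in eGFP-GluA2 and 15.8 ± 4.25 CPM in eGFP libraries, a log2 fold change of 0.19 ± 0.12 (SE), and that of Rnpepl1 was 0.08 ± 0.08 (SE).

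Gm11702 (chr11:115657491-115657559, minus strand) is a processed pseudogene of 69 bp inside an intron of Grb2 (chr11:115644045-115708597, minus strand), with 0 exon bases in common. Its full sequence is shown because the annotated transcripts hold a copy.
Gm11702: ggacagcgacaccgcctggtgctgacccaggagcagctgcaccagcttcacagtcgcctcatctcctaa
All 69 bases matched a transcript of Dctn1 (chr6:83165920-83200117), which encodes a dynactin subunit, with 100% identity and 0 mismatches, and 66 of them matched the pseudogene Gm45513 at 92.4%. The gene is shorter than a read, so its count is uncertain.

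Gm11702 had 5, 6, 9, 8, 6, 9 and 4 reads in the 7 eGFP-GluA2 libraries, against 12, 25, 16, 11, 45, 22, 49, 30 and 27 reads in the 9 eGFP libraries. The groups did not overlap, at 0.304 to 0.989 CPM in eGFP-GluA2 and 1.2 to 3.71 CPM in eGFP libraries. The log2 fold change was -1.83 ± 0.38 (SE) without covariates and -1.85 ± 0.32 (SE) with the background as a covariate. It exceeded the filter's level in 1 of 7 eGFP-GluA2 and in 9 of 9 eGFP libraries, so it too passed only through the eGFP group. In TPM and in the authors' normalized values it is listed at 0 in all 16 libraries. Dctn1, with the same 69 bases, lay at 306 to 489 CPM in eGFP-GluA2 and 295 to 430 CPM in eGFP libraries, a log2 fold change of 0.18 ± 0.23 (SE).

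Grb2 averaged 65.7 ± 10.7 CPM in eGFP-GluA2 and 64.0 ± 10.5 CPM in eGFP libraries (SD, n = 7 and 9), a log2 fold change of 0.04 ± 0.24 (SE, 95% confidence interval -0.48 to 0.55). It was at 46.8 and 53.7 CPM in high-background eGFP-GluA2 libraries and at 46.0 to 65.9 CPM in high-background eGFP libraries, the lowest level in both groups. A stretch of 655 bp of Grb2 is shared at 98.0% with the pseudogene Gm12791 on chromosome 4. Of 24 other genes of Grb2 signalling, among them receptor adaptors and kinases, 0 passed at an adjusted or an unadjusted p of 0.05. Of all tested genes 0.00381% and 1.12% passed. Of the 24, 11 were below and 13 above 0, with a median log2 fold change of 0.01. Sos2, an exchange factor that binds Grb2, was at 27.1 ± 3.37 CPM in eGFP-GluA2 and 29.2 ± 4.83 CPM in eGFP libraries, a log2 fold change of -0.08 ± 0.10 (SE).

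In the authors' deposited table, whose log2 fold changes are positive for Gria2, the gene for GluA2, and so run as eGFP-GluA2 over eGFP, Abca6 had -0.75, P3h4 -0.67, Gm11592 -0.58 and Abca9 -0.51. The adjusted p of their DESeq2 comparison was 0.00376 for Abca6, 0.0457 for P3h4 and 0.0527 for Gm11592. That of Abca9 lay far above 0.05, so Abca9 did not pass. These values come from the contrast that chose the genes. For Gm11592 the authors' value was nearer 0 than the -2.23 fitted here, and the cause was not tested. Gm11702 had no estimate there. The other cluster genes, Npepps and Grb2 had values between -0.08 and 0.00 in the authors' deposited table. With 1 surrogate variable the genes nearest the threshold were Whrn just inside it (adjusted p = 0.0416) and Gm43900 just outside it (adjusted p = 0.121).

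The genes around the members were not chosen by their values and were tested. Within 500 kb of a member the annotation holds 197 other genes, of which 138 were tested. At an adjusted p of 0.05 in edgeR's test 0 of them passed, and 0 lay under an unadjusted p of 0.05 in either direction. Of all tested genes other than members, 0.533% were lower and 0.564% higher at that unadjusted p. Their median log2 fold change was 0.03, against -0.02 over all tested genes, and 56 of them were below 0. With the background as a covariate 2 were lower and 7 higher at an unadjusted p of 0.05 (1.45% and 5.07%, against 1.68% and 2.13% of all tested genes), and 0 passed at the adjusted p. Around the Abca row 7 other genes were tested, with log2 fold changes from -0.12 to 0.31. Map2k6, a kinase gene 61.4 kb beyond Abca5, was at 12.6 ± 1.97 CPM in eGFP-GluA2 and 13.1 ± 1.92 CPM in eGFP libraries, a log2 fold change of -0.05 ± 0.13 (SE). On the other side, Arsg, for a lysosomal sulfatase, had 0.10 ± 0.10 (SE) and Wipi1, for an autophagy protein, 0.11 ± 0.23 (SE).

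Around P3h4, the processed pseudogene Gm10039, 46.3 kb away, had a log2 fold change of -1.50 ± 0.71 (SE, adjusted p = 1.00 in edgeR's test). It averaged 1.61 ± 0.442 CPM in eGFP-GluA2 and 4.32 ± 4.17 CPM in eGFP libraries (SD, n = 7 and 9). Hap1, which encodes a huntingtin-associated protein, was at 28.6 ± 4.09 CPM in eGFP-GluA2 and 35.7 ± 5.21 CPM in eGFP libraries, a log2 fold change of -0.29 ± 0.14 (SE, adjusted p = 1.00), and Nkiras2 had 0.09 ± 0.09 (SE). Around Npepps and Gm11592, Snx11 had 0.14 ± 0.09, 4933428G20Rik -0.23 ± 0.16 and Gm11613 -0.25 ± 0.19 (SE). Around Grb2, Mif4gd had 0.28 ± 0.14, Fdxr 0.14 ± 0.07 and Tmem104 0.10 ± 0.10 (SE). Over chromosome 11 as a whole 1810 other genes were tested, of which 3 were lower and 11 higher at an unadjusted p of 0.05 and 0 passed at the adjusted p. Ranked by log2 fold change with the background as a covariate, Gm11592 and Gm11702 were the 2 lowest of 1820 tested genes of the chromosome. Abca9, P3h4 and Abca6 were at ranks 6, 7 and 8. These members were chosen as lower in this contrast, so their ranks follow from the choice.

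**Figure D4:**
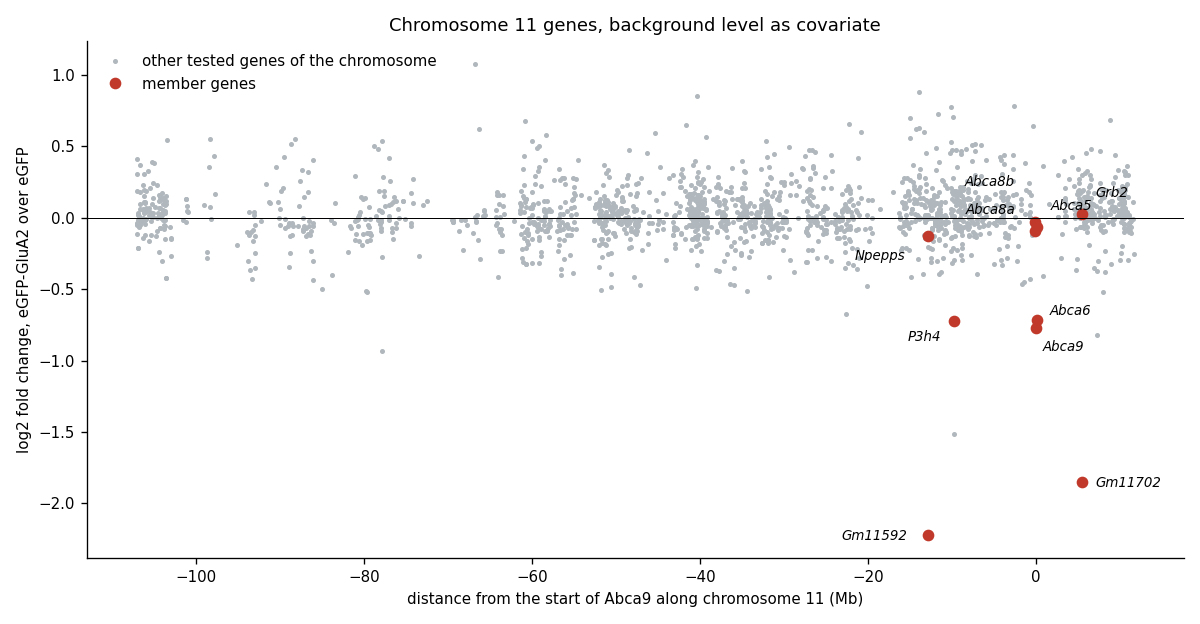
Log2 fold change of eGFP-GluA2 over eGFP with the background as a covariate (vertical axis) for 1820 tested genes of chromosome 11 by distance from the start of Abca9 in Mb (horizontal axis), members in red. Gm11592 and Gm11702 are the lowest points, Abca9, Abca6 and P3h4 lie near -0.7 to -0.8, and most genes beside them scatter about 0. Near P3h4, the other genes Gm10039 and Hap1 lie at -1.52 and -0.29, while the 43 tested genes within 500 kb of it have a median of 0.06. These named members were chosen as lower in this contrast.

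How the genes vary together was described after group and background were taken out. The residual correlation of log2 CPM over 16 libraries was 0.40 between Abca9 and Abca6, where that of log2 CPM itself was 0.91. It was -0.18 between Abca9 and P3h4 and -0.38 between Abca6 and P3h4. Npepps and Grb2 had 0.93, and P3h4 had 0.74 with Grb2 and 0.73 with Npepps. These values are descriptions over libraries that share depth and background. The genes whose residuals were most like those of Abca9 were Gm37137 (r = 0.85), Catspere2 (0.84) and Taf1b (0.83), and for Abca6 Gm48139 (0.86), Gm19605 (0.85) and Gm16334 (0.84), each over 16 libraries. For Abca8a they were Kpna7 (r = 0.83), Tbx3os1 (0.81) and Fbxo15 (0.81), for P3h4 Rcbtb2 (0.90), Slc3a2 (0.90) and Ero1l (0.89), and for Gm11592 Cyp4v3 (0.84), Gm14486 (0.84) and Nctc1 (0.82). None of these 15 genes lies on chromosome 11, which holds only 1820 of the 26257 tested genes, so this is not a result about position. They are the highest of many correlations over 16 libraries, and none was tested.

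Genes for handling sterols and phospholipids, which include carriers and enzymes that work with ABC transporters, had 0 of 20 past an adjusted or an unadjusted p of 0.05 in edgeR's test without covariates. The share over all tested genes was 0.00381% and 1.12%. With the background as a covariate 0 passed the adjusted p and 2 were higher at an unadjusted p of 0.05, against 2.13% of all tested genes. Of the 20 genes 5 were below and 15 above 0, with a median log2 fold change of 0.05. Srebf1, a regulator of lipid synthesis, averaged 38.9 ± 3.50 CPM in eGFP-GluA2 and 35.2 ± 5.46 CPM in eGFP libraries, a log2 fold change of 0.17 ± 0.10 (SE). Abcg4, a sterol exporter of neurons, was at 139 ± 11.6 and 113 ± 13.1 CPM in the same groups, a log2 fold change of 0.30 ± 0.20 (SE). Of 12 fibroblast markers 10 were tested, 8 were below 0 and 0 passed, with a median of -0.14 without covariates and 0.06 with the background as a covariate. Dcn averaged 2.06 ± 1.93 CPM in eGFP-GluA2 and 2.50 ± 2.79 CPM in eGFP libraries, a log2 fold change of -0.19 ± 0.67 (SE), and Slc22a6 had -0.27 ± 0.92 (SE). Markers of PV interneurons, oligodendrocytes and their precursors, astrocytes, microglia, endothelium, mural cells and excitatory neurons had 0 past the adjusted p each. Without covariates, 1 excitatory neuron marker was higher at an unadjusted p of 0.05, and with the background as a covariate 3 excitatory neuron markers and 1 each of oligodendrocyte precursors, astrocytes and mural cells were higher. Among these lists, the excitatory neuron marker Slc17a7 was at 44.2 ± 11 CPM in eGFP-GluA2 and 30.0 ± 6.50 CPM in eGFP libraries, a log2 fold change of 0.58 ± 0.22 (SE, adjusted p = 1.00). The part of these cell types in the levels of the members was not tested.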

How the data were processed

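The labels' protocols describe RNA from fixed, sorted cells and name bcbio-nextgen 1.2.3, STAR, Sailfish and the Ensembl annotation on GRCm38. No source used here says whether counting was strand-specific. The authors deposited a table of read counts per gene, a table of TPM, a table of normalized values, and a table of their DESeq2 comparison. The deposited normalized values (signal scaled by size factors) were whole reads after division by the smallest step in 100% of values within 0.001. In the authors' comparison the log2 fold change, its p-value and its test score are as deposited.

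The members and gene lists were chosen with earlier results of these data known. Counts were fitted with edgeR 4.0.16 (quasi-likelihood F test, TMM, filterByExpr, Benjamini-Hochberg adjustment over 26257 genes), with the groups alone, with 1 surrogate variable (sva 3.50.0), or with the log2 background as a covariate. The SE of a log2 fold change was its absolute value divided by the square root of F, and confidence intervals used this SE. CPM in the text are counts over the library total. The log2 CPM are TMM-scaled with a prior count of 2. Alternatives used DESeq2 1.42.0 and limma 3.58.1 (limma also on log2(TPM + 0.5)). Libraries of each group are numbered as replicates in the labels; sex, litter and batch per library were not used. The p-values measure the spread between these libraries. Same-numbered libraries of the groups did not always deviate together, so no pairing was assumed. Of 54532 gene IDs, 54409 had a name in GENCODE M21, whose build is GRCm38. Named genes besides the members were the 3 of smallest p within 500 kb of each locus, the 2 of smallest p of each list and the 3 with the most similar residuals; for some lists a part of these is not reported here. Abca6, P3h4 and Gm11702 had no entry among the promoter windows.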

Additional observations from a re-analysis of the deposited data

Results flagged for a closer look

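Among the 20 sets formed by the 10 genes and the 2 groups, the lowest library stood far from its group in 1 case. Gm11592 had 1 read in eGFP-GluA2 replicate 7, a log2 CPM of -1.87, and the gap to the next library was 0.589 of the range of the 7 eGFP-GluA2 libraries. The other eGFP-GluA2 libraries had 3 to 8 reads, and chance flags about 1 in 20 such sets.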

How the results depend on the processing

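The count of genes under an adjusted p of 0.05, 1 without covariates, was 9 with 1 surrogate variable, 9 with the background as a covariate, 11 with its 3 levels as a block and 3 without the high-background libraries. It was 2 with upper-quartile scaling, 8 with DESeq2, and 3 when the whole reads behind the deposited normalized values were fitted. With limma on log2(TPM + pseudocount) it was 2 with 0.5, 3 with 0.1, 2 with 1 and 2 with no filter; the cause of these moves was not tested. Taking the replicate number as a block gave 7 genes, and 4 together with the background; the correlations of same-numbered libraries ran from -0.03 to 0.90, not every library correlated best with its own number, and 0 genes of the lists passed under the block. Leaving out any 1 of the 16 libraries gave a count of 1 each time. Of the neighbouring genes 0 were lower at an unadjusted p of 0.05, and 2 with the background as a covariate. The log2 fold changes of the members chosen as lower stayed below 0 in every alternative that gave an estimate. They ran from -0.96 to -0.34 for Abca9, -1.20 to -0.42 for Abca6 and -1.12 to -0.60 for P3h4. For Gm11592 they ran from -2.48 to -0.99, and for Gm11702 from -2.23 to -1.64. These genes were chosen from this contrast in the same libraries, so the kept sign adds no support. The fit of recovered reads gave no estimate for Gm11592 or Gm11702. The TPM fits gave none for Gm11702, whose TPM and recovered reads were 0 in all 16 libraries. On recovered reads Abca6 had -1.20 and P3h4 -1.12. Without 1 library each they ran from -0.95 to -0.67 for Abca9, -0.85 to -0.66 for Abca6, -0.82 to -0.65 for P3h4, -2.39 to -2.04 for Gm11592 and -1.94 to -1.69 for Gm11702. That of Npepps, near 0, also stayed below it (-0.21 to -0.01). Abca8a (-0.69 to 0.50), Abca8b, Abca5 and Grb2 took both signs. Of the members, 8 were related to the background, and 8 to 9 without 1 library (chosen after seeing the data). Depth limits Gm11592 and Gm11702 the most, with at most 9 reads in any eGFP-GluA2 library.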
